A study of Homo sapiens with 79 samples.

Results

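RNA recovered with RBBP5 was compared with input RNA in K562, an established human line of chronic myelogenous leukaemia that grows in suspension. The comparison holds 6 of the 79 libraries of the series, chosen by their labels: the 3 of RBBP5 fRIP and the 3 of input set 2. In fRIP, living cells are crosslinked with formaldehyde, here at 0.1%, and sonicated, an antibody to a single protein is added, and the RNA that comes down with it is sequenced beside input RNA, taken from the lysate before the antibody was added. Both groups were crosslinked and lysed in the same way, and the labels name no drug, engineered allele or knockdown for either. The study describes its triplicates as made on different dates from different lysates. Input RNA came as 3 sets of 3 libraries, and the sources used here do not say which set was prepared beside RBBP5 fRIP, so input set 2 served as the reference, and input sets 1 and 3 and the mean of all 9 input libraries served as checks.

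RBBP5 is, with WDR5, ASH2L and DPY30, part of the core module that the COMPASS complexes share. These complexes hold a catalytic subunit of the SET1 or MLL families and place methyl groups on H3K4, a mark of promoters and enhancers of active genes. RBBP5 lies next to the catalytic subunit and is needed for its full activity, and WDR5 is a scaffold that is also known to contact RNA. What an antibody to RBBP5 recovers is RNA crosslinked to RBBP5, to the complexes that hold it or to anything else the antibody brings down, and the values below do not separate these.

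The level of a gene is given as FPKM, its fragments divided by transcript length and by the mapped fragments of the library, so that it is relative to the rest of its library. Fold changes are differences of log2(FPKM + 1), a scale that understates the change of genes near or below 1 FPKM. From the FPKM step that a single fragment adds, the RBBP5 libraries held about 6620000, 8190000 and 7200000 fragments and those of input set 2 about 30500000, 29000000 and 27200000, so that low values are less precise in RBBP5 fRIP. Pairs of RBBP5 libraries correlated at 0.965 to 0.977 over the log2 values of 25442 genes, pairs of input libraries at 0.978 to 0.989 and pairs of an RBBP5 and an input library at 0.953 to 0.973, a range that overlaps that of the RBBP5 pairs. These are descriptions across genes. All 12 markers fixed for K562 reached 1 FPKM in at least 1 of the 6 libraries, and they summed to 1588 to 1965 FPKM in RBBP5 fRIP and to 2073 to 2739 FPKM in input set 2. Of 19 markers of other cell types in the table, 7 reached 1 FPKM, their sum was 101 to 128 FPKM in RBBP5 fRIP and 164 to 184 FPKM in input, and the keratin KRT5 was listed at 0 in all 6 libraries. The part of these markers in the results was not tested. These are bulk libraries, in which fewer cells holding an RNA and less of that RNA per cell cannot be told apart.

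RBBP5 fRIP enriched a small part of the transcriptome and depleted a smaller one. Of 25442 genes tested, 685 (2.69%) were enriched and 252 (0.99%) were depleted, where a call needed more than 1 log2 unit of change and a limma p, adjusted by Benjamini and Hochberg, under 0.05. For 653 of the 685 enriched genes every RBBP5 library lay above every library of input set 2, and for 246 of the 252 depleted genes every RBBP5 library lay below. Long noncoding RNAs (lncRNAs) were called enriched more often than mRNAs as a share of those tested: 245 of 5245 lncRNAs (4.67%) against 211 of 13618 mRNAs (1.55%). Among pseudogenes 168 of 5247 (3.20%) were enriched. Depleted were 141 mRNAs (1.04%), 79 pseudogenes (1.51%) and 15 lncRNAs (0.286%). Over all genes the median log2 fold change was 0.06, and centring each library on its median gene moved it to -0.22 and the split of calls to 217 enriched and 763 depleted. The median of lncRNAs, 0.15, became -0.13 after centring and -0.02 against input set 1, so the direction of small changes over whole classes depends on the scaling.

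The calls depended on the input. Against all 9 inputs, 466 of the 685 enriched genes (68.0%) and 150 of the 252 depleted genes (59.5%) were called again. Against input set 3 alone these were 575 (83.9%) and 182 (72.2%), and against input set 1 alone 199 (29.1%) and 80 (31.7%). A core of 184 genes was enriched, and 68 genes were depleted, against each of the 3 input sets.

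Some RNAs of the Cajal body, a nuclear body in which spliceosomal RNAs are modified and telomerase is assembled, were enriched. Small Cajal body RNAs (scaRNAs) guide modifications of the spliceosomal RNAs, and the 3 named here first were singled out after their values were seen. These 3 were enriched, beside 2.69% of all genes, and SCARNA22 and SCARNA15, the other scaRNAs tested, were not called. SCARNA10 measured 2844, 3214 and 3060 FPKM in the RBBP5 libraries and 115, 98.9 and 88.3 FPKM in input set 2. The lowest RBBP5 value was far above the highest input value, and the log2 fold change was 4.91 (SE 0.33, limma adjusted p = 7.01e-17). SCARNA2 measured 10430, 9528 and 11538 FPKM in RBBP5 fRIP and 840, 927 and 692 FPKM in input, a log2 fold change of 3.68 (SE 0.22, limma adjusted p = 5.82e-19). It lies at chr1:109642815-109643241 (GRCh37, plus strand), and its libraries did not overlap between the groups. SCARNA9, which lies on the same strand within CEP295, measured 320, 255 and 282 FPKM against 64.2, 51.4 and 48.6 FPKM, a log2 fold change of 2.37 (limma adjusted p = 3.16e-07), while its host gene CEP295 stood at 0.50, under the fold required. Each of these RNAs was also enriched against input sets 1 and 3. SCARNA22 measured 287, 129 and 246 FPKM against 76.4, 71.7 and 55.6 FPKM, but its values spread widely across the series and it was not called (log2 fold change 1.62, limma adjusted p = 0.51). SCARNA15, at 2.13 to 2.54 FPKM against 0.78 to 1.25 FPKM, had a log2 fold change of 0.74, under the fold required for a call. Its entry is a lncRNA of 4325 bases, so these values do not describe an RNA of scaRNA size. In short genes such as the other scaRNAs, FPKM rests on few fragment positions and on the length the authors' tool assigned.

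Telomerase RNA was also enriched. TERC, the RNA that carries the template for telomere repeats and ends in an H/ACA domain of the kind that places RNAs in Cajal bodies, measured 331, 293 and 301 FPKM in RBBP5 fRIP and 90.2, 90.2 and 77.3 FPKM in input set 2 (log2 fold change 1.83, SE 0.23, limma adjusted p = 3.05e-08). The groups did not overlap, and the fold was larger against input set 1 (log2 fold change 3.64) and close to it against input set 3 (1.63). Its template is shown in capitals, as DNA letters of the RNA strand, within a 30-base window at chr3:169482783-169482812 (GRCh37, minus strand), and the ACA box near its end, also in capitals, within a window at chr3:169482398-169482427.
TERC template: attttttgtCTAACCCTAACtgagaagggc
TERC ACA box: acgtgcacccaggactcggctcacACAtgc

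RPPH1 and RN7SL1, other structural RNAs, were depleted. RPPH1, the RNA subunit of ribonuclease P, which trims the leading end of tRNAs, measured 997, 1151 and 1121 FPKM in RBBP5 fRIP and 2721, 2472 and 2285 FPKM in input, a log2 fold change of -1.19 (SE 0.22, limma adjusted p = 7.79e-05). Against input set 1 it was not called, at -0.38 (limma adjusted p = 0.29). RN7SL1, the RNA of the signal recognition particle, measured 52.5, 67.5 and 56.2 FPKM against 255, 199 and 208 FPKM, and was depleted against each input set (log2 fold change -1.89 against input set 2 and -1.52 against input set 1). Of 19 listed abundant structural RNAs 7 passed the filter on low values, and TERC, RPPH1 and RN7SL1 were the 3 called, beside 2.69% of all genes enriched and 0.99% depleted. The 6 small nucleolar RNAs tested gave no call, and SNORA71A, with 56.5, 254 and 296 FPKM against 156, 184 and 225 FPKM, shows how far the RBBP5 libraries differed among themselves for such short genes. None of the 23 snoRNA host genes was called by limma. At an unadjusted p under 0.05 there were 0 of the small nucleolar RNAs and 8 of the host genes.

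**Figure D1:**
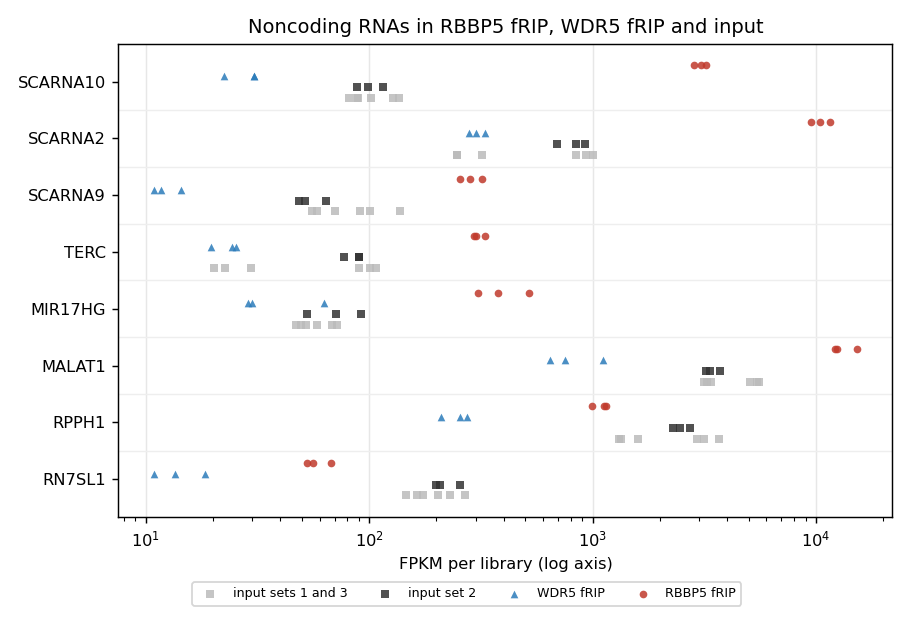
FPKM of 8 noncoding RNAs in each library on a log axis, with RBBP5 fRIP as red circles, WDR5 fRIP as blue triangles, input set 2 as black squares and the other input sets as grey squares. The 3 RBBP5 points of SCARNA10, at 2844 to 3214 FPKM, lie right of all inputs, those of RN7SL1, at 52.5 to 67.5 FPKM, lie left of all inputs, and the WDR5 points of SCARNA10 lie left of the inputs, at 22.4 to 30.7 FPKM.

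MIR17HG, a longer noncoding RNA and microRNA host, was also enriched. It measured 307, 377 and 521 FPKM in RBBP5 fRIP and 52.8, 70.9 and 91.5 FPKM in input set 2 (log2 fold change 2.47, SE 0.30, limma adjusted p = 1.49e-08), and 2.55 and 2.96 on the same scale against input sets 1 and 3. The RBBP5 libraries spread among themselves, but the lowest stood well above the highest of all 9 inputs. MIR17HG (chr13:91999940-92049846, GRCh37, plus strand) is the host transcript of the miR-17-92 cluster, whose microRNAs promote proliferation in blood cells, and its 6 hairpins yield mature microRNAs that fall into groups by their seed, the bases that pair with a target. The sequences are from RefSeq (GRCh38.p14) and show why the cluster is read as a few related families: miR-17-5p and miR-20a-5p share a seed, miR-19a-3p and miR-19b-3p share another, and the seeds, at positions 2 to 8, are in capitals.
miR-17-5p: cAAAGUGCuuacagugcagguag
miR-20a-5p: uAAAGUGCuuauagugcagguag
miR-18a-5p: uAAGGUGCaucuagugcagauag
miR-19a-3p: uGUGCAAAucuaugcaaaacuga
miR-19b-3p: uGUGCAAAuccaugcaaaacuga
miR-92a-3p: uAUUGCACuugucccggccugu

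DLEU2, the host of the miR-15a and miR-16-1 microRNAs, was enriched as well, with 50.5, 69.3 and 72.7 FPKM against 17.0, 21.5 and 22.9 FPKM (log2 fold change 1.59, limma adjusted p = 3.18e-05). NEAT1, the scaffold of paraspeckles, measured 169, 163 and 106 FPKM against 75.5, 84.7 and 50.8 FPKM (log2 fold change 1.04, limma adjusted p = 0.0024), a call that rests close to the fold threshold, and its value was 0.64 against all 9 inputs and 0.77 after centring. MALAT1, the abundant RNA of nuclear speckles, measured 15301, 12163 and 12398 FPKM in RBBP5 fRIP and 3717, 3355 and 3230 FPKM in input. Its groups lay well apart, but it varied so much across the series that the pooled spread gave no call (log2 fold change 1.95, SE 1.31, limma adjusted p = 0.37), while a fit on the 6 libraries alone gave an adjusted p of 0.049. Of 18 named lncRNAs tested none was depleted, and MIR17HG, DLEU2 and NEAT1 were enriched, beside 4.67% of all lncRNAs tested. The median of the list was 0.33, beside 0.06 over all genes, and was 0.06 against input set 1, 0.18 against all 9 inputs and 0.05 after centring.

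Of the 4 less known lncRNAs that the naming rule places furthest up, 3 lay within or opposite other genes. ACAP2-IT1, an intronic transcript on the same strand as ACAP2, measured 30.9, 32.4 and 21.5 FPKM against 4.17, 4.59 and 3.52 FPKM (log2 fold change 2.51, limma adjusted p = 2.32e-09), and its host ACAP2 was itself enriched, at 1.11. RP11-530C5.2, opposite PPP1R12A, measured 13.9, 23.6 and 17.4 FPKM against 2.24, 3.04 and 2.45 FPKM (2.41), with its host at 0.57. RP3-368A4.6 stood at 1.89 and RP11-685N10.1, within MRE11, at 1.84, and all 4 stayed enriched against each input set. Besides RPPH1, the lncRNAs that the naming rule places furthest down were UCA1 (7.83, 8.55 and 4.33 FPKM against 23.7, 18.2 and 13.7 FPKM), ZNF232-AS1 and GIHCG, at log2 fold changes of -1.32, -1.16 and -1.14. UCA1 was depleted against each input set, but was not called in the fit on the 6 libraries alone (limma adjusted p = 0.057), and the other pair was not called against input set 1 (-0.05 for ZNF232-AS1 and -0.996 for GIHCG). ZNF232-AS1 was also not called against all 9 inputs (-0.86) or without RBBP5 library 1 (-0.99), nor GIHCG without RBBP5 library 2 (-0.93).

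Enriched mRNAs were few, and those that the naming rule places furthest up included transcription regulators and small genes nested in larger ones. CREBZF, a transcription regulator of the unfolded protein and herpesvirus responses, measured 136, 127 and 134 FPKM in RBBP5 fRIP and 37.4, 39.9 and 37.4 FPKM in input (log2 fold change 1.76, SE 0.15, limma adjusted p = 2.56e-13). ANKRD10, an ankyrin repeat protein, measured 406, 308 and 291 FPKM against 108, 119 and 73.7 FPKM (1.75). The zinc finger gene ZNF519 measured 23.9, 27.1 and 26.3 FPKM against 5.83, 6.91 and 8.55 FPKM (1.74). In all 3 every RBBP5 library lay above each of the 9 input libraries. Among called members of the gene lists, CEP290, a centrosomal protein of the ciliary transition zone, measured 47.6, 43.6 and 38.2 FPKM against 13.4, 13.4 and 13.4 FPKM (1.61). ROCK1, a kinase that regulates the actin cytoskeleton, measured 57.6, 54.1 and 53.3 FPKM against 24.7, 24.3 and 21.7 FPKM (1.19), and ATRX, a chromatin remodeler that deposits histone variants at repeats, measured 36.6, 28.9 and 31.0 FPKM against 10.9, 16.6 and 14.4 FPKM (1.16). After centring ROCK1 stood at 0.91 and ATRX at 0.89, under the fold required, and ATRX stood at 0.97 against input set 1.

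The bitter taste receptor genes made up part of the nested group. TAS2R19 measured 15.4, 10.2 and 16.6 FPKM against 2.75, 2.65 and 2.35 FPKM (log2 fold change 2.05, limma adjusted p = 9.45e-11). TAS2R14 measured 17.1, 15.4 and 17.1 FPKM against 3.35, 3.53 and 3.93 FPKM (1.93), and TAS2R20 measured 10.5, 9.06 and 8.72 FPKM against 2.14, 1.6 and 1.92 FPKM (1.85). All 3 lie on the same strand within the span annotated for PRH1, which had 0.91 FPKM on average in RBBP5 fRIP, and as members of a gene family they may share reads with near copies. GPR22, an orphan receptor gene within an intron of COG5 on the opposite strand, measured 23, 24.3 and 26.9 FPKM against 5.99, 6.08 and 5.98 FPKM (1.87), and OGN, a proteoglycan gene opposite CENPP, measured 17.2, 18.8 and 24.8 FPKM against 4.81, 4.90 and 6.87 FPKM (1.70). Their hosts COG5, at -0.05, and CENPP, at -0.11, were not called. LRRN3, opposite IMMP2L, was enriched at 1.52 with its host at 0.34. The library kit did not mark strand and the counting is not described as using it, so for nested genes on the opposite strand the RNA of the gene and that of the surrounding intron cannot be told apart. For genes nested on the same strand, such as TAS2R19, TAS2R14 and TAS2R20, strand would not separate them in any case.

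By count, 39 of the 211 enriched mRNAs (18.5%) lay wholly within the span of another mRNA gene, against 705 of 13266 mRNAs that were not called (5.31%). The 36 hosts that were tested had a median log2 fold change of 0.22, and 2 of them were enriched. Among lncRNAs 149 of the 245 enriched (60.8%) and 2098 of the 4985 not called (42.1%) were nested in this way. Among pseudogenes these were 110 of 168 (65.5%) and 2223 of 5000 (44.5%). Over all tested mRNAs 5.16% of nested genes and 1.34% of the others were enriched.

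ZNF888, a zinc finger gene, had the largest fold change of the mRNAs named here. It measured 51.7, 14.4 and 18.8 FPKM in RBBP5 fRIP against 2.07, 5.25 and 1.4 FPKM in input (log2 fold change 2.81, SE 0.79, limma adjusted p = 0.0086). The call was lost without RBBP5 library 1 (2.28, adjusted p = 0.085), without input library 3 (2.52, adjusted p = 0.053) and against input set 3 (2.01, adjusted p = 0.061). ZNF888 belongs to a family of near copies on chromosome 19, and of 219 zinc finger genes of that chromosome 3 were enriched, ZNF888, ZNF493 and ZNF420, and none was depleted, beside 1.55% of all mRNAs enriched. MTRNR2L1, a nuclear copy of mitochondrial ribosomal RNA sequence, measured 8.32, 5.06 and 2.88 FPKM against 0.94, 0.94 and 0.11 FPKM (1.91), and may share reads with other copies.

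**Figure D2:**
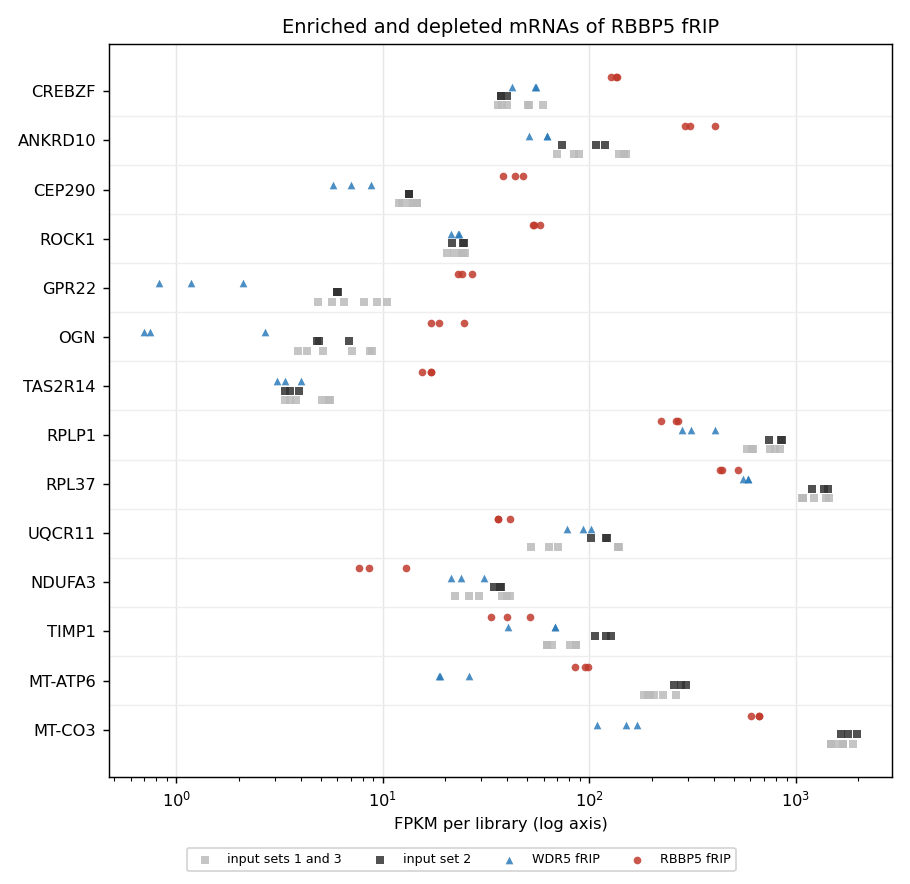
FPKM of 14 mRNAs in each library on a log axis, with symbols as red circles for RBBP5 fRIP, blue triangles for WDR5 fRIP, black squares for input set 2 and grey squares for the other input sets. The upper 7 genes, from CREBZF to TAS2R14, have all RBBP5 points right of all inputs and the lower 7, from RPLP1 to MT-CO3, have them left of all inputs.

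Most listed RNAs encoded in the mitochondrial genome were depleted. All 13 tested lay below every library of input set 2, beside 11.3% of all genes, and 9 of them were called depleted, beside 0.99% of all genes, with a median log2 fold change of -1.22. They encode subunits of the respiratory chain and of ATP synthase. MT-CO3, a subunit of cytochrome c oxidase, measured 665, 665 and 607 FPKM in RBBP5 fRIP and 1970, 1646 and 1792 FPKM in input (-1.48, limma adjusted p = 6.59e-06). MT-ATP6, a subunit of the ATP synthase, measured 98.0, 95.5 and 84.7 FPKM against 295, 256 and 279 FPKM (-1.57). The medians against input sets 1 and 3 were -1.03 and -1.11, and after centring the median was -1.49. The 13 summed to 2794 to 2873 FPKM in RBBP5 fRIP and to 6106 to 7055 FPKM in input set 2. All mitochondrial RNAs together, mostly entries other than these 13, were also taken as a share of the FPKM of all kept genes. That share was 6.09% to 7.68% in RBBP5 fRIP and 11% to 13.8% in input set 2, but also 6.46% to 7.31% in input set 3.

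Of 79 messenger RNAs of cytosolic ribosomal proteins 33 were depleted, 46 were not called and none was enriched, beside 1.04% of all mRNAs depleted. Below every library of input set 2 lay 69 of them, beside 15.6% of all mRNAs, and the median log2 fold change was -0.97 (-0.62 against input set 1, -1.01 against input set 3). RPLP1, a protein of the acidic stalk, measured 222, 262 and 267 FPKM against 853, 742 and 846 FPKM (-1.70, SE 0.18, limma adjusted p = 5.83e-10). RPL37, of the large subunit, measured 429, 440 and 522 FPKM against 1368, 1193 and 1433 FPKM (-1.52). RPS29, of the small subunit, measured 303, 318 and 331 FPKM against 959, 838 and 905 FPKM (-1.5). RPL11, the member with the most FPKM in input, lay just inside the fold threshold at -0.97, with 932, 942 and 1118 FPKM against 1949, 1811 and 2111 FPKM. Many of these genes have processed pseudogenes, and reads may be split between the copies.

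Depletion of other short, highly expressed mRNAs depended on the input. Of 82 nuclear-encoded mRNAs of the respiratory chain 9 were depleted and none enriched, with a median of -0.67 against input set 2 but -0.06 against input set 1. NDUFA3, a small subunit of complex I, measured 7.62, 8.55 and 13 FPKM against 36.9, 37.2 and 34.5 FPKM (-1.83), and was depleted against each input set. UQCR11, of complex III, measured 41.5, 36.0 and 36.1 FPKM against 102, 120 and 122 FPKM (-1.57), but was not called against input set 1 (-0.69). Of 77 mRNAs of mitochondrial ribosomal proteins 2 were depleted, beside 0.99% of all genes. MRPL53 was among them at -1.28 but was not called against input set 1 (-0.75), and the list median of -0.44 turned to 0.20 against that set. Of 37 proteasome subunits none was called by limma, although 20 had an unadjusted p under 0.05, and the median turned from -0.35 to 0.22. Among 76 replication-dependent histone mRNAs 9 were depleted and the median was -0.69, but against input set 1 it was 0.29. HIST1H3B, with 219, 304 and 253 FPKM against 639, 669 and 664 FPKM (-1.35), stood at 0.42 against input set 1, whose libraries held 187 to 203 FPKM, and was not called against all 9 inputs (-0.81). For histone mRNAs the direction thus depended on the input set.

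Leading depleted mRNAs outside these lists included TIMP1, a metalloproteinase inhibitor, with 39.7, 51.5 and 33.5 FPKM against 127, 120 and 107 FPKM (log2 fold change -1.5). It was not called against input set 1 (-0.87) or input set 3 (-0.77). The remaining leading ones were annotated readthrough or overlapping loci, whose FPKM depend on how reads are divided with their neighbours: RP11-872D17.8 at -1.94, COMMD3-BMI1 at -1.72 and BCL2L2-PABPN1 at -1.67. BCL2L2-PABPN1, with 1.54, 4.25 and 4.57 FPKM against 12.6, 11.7 and 12.9 FPKM, was depleted in every alternative run, while COMMD3-BMI1 lost its call in 9 of them. RP11-872D17.8 lost its call against input set 3 (-1.27, limma adjusted p = 0.074) and without input library 3 (-1.63, limma adjusted p = 0.056). The T cell gene CD3D was the only marker of another cell type called, with 12.7, 20.8 and 12.3 FPKM against 35.5, 38.7 and 34.9 FPKM (-1.23), and it was not called against all 9 inputs (-0.75), input set 1 (-0.21) or input set 3 (-0.79).

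**Figure D3:**
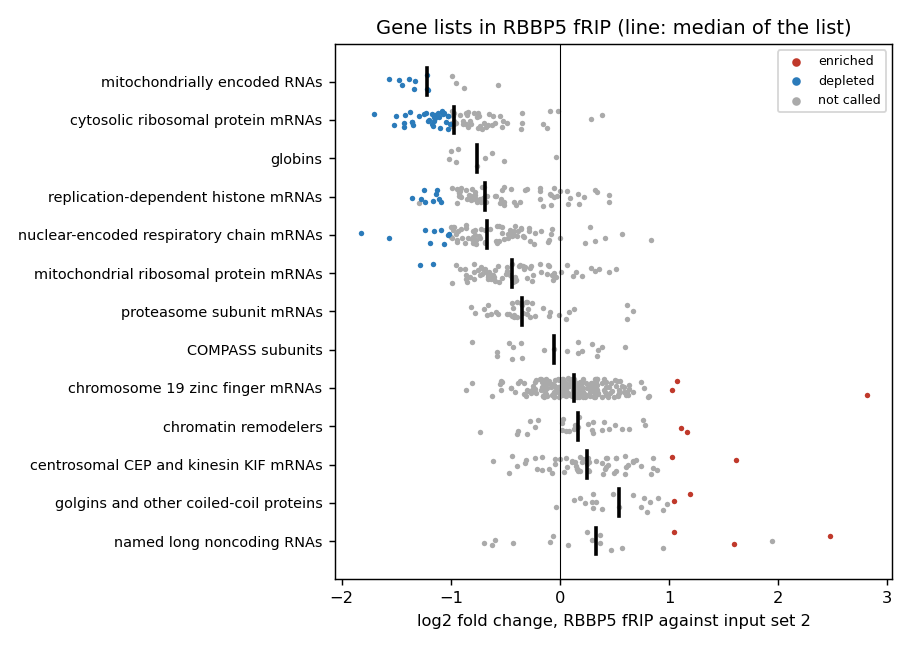
Log2 fold change of RBBP5 fRIP against input set 2 for the tested members of 13 gene lists, each point a gene and each black line the median of a list, with enriched genes in red and depleted genes in blue. The mitochondrially encoded RNAs and the ribosomal protein mRNAs lie furthest left, at medians of -1.22 and -0.97, and the medians of histone, mitochondrial ribosomal protein and proteasome mRNAs turned positive against input set 1 while those of zinc finger, remodeler and CEP and KIF mRNAs turned negative after centring.

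Some lists had medians above that of all genes by small amounts. Of 21 golgins and other long coiled-coil proteins, which tether vesicles or build the centrosome, 15 lay above every input library of set 2, beside 18.5% of all mRNAs. ROCK1 and NIN were enriched, none was depleted and the median log2 fold change was 0.54 (0.26 after centring and 0.40 against input set 1). PCM1, the scaffold of centriolar satellites, was the member with the most FPKM, at 282, 242 and 242 FPKM against 137, 138 and 134 FPKM, and at 0.90 it stayed under the fold required. Of 63 centrosomal CEP and kinesin KIF genes, CEP290 and CEP78 were enriched, and of 30 chromatin remodelers, ATRX and CHD2, beside 1.55% of all mRNAs enriched. CHD2 measured 304, 289 and 251 FPKM against 141, 143 and 107 FPKM (1.11). After centring CHD2 stood at 0.84, NIN at 0.77 and CEP78 at 0.75, under the fold required. The medians of these lists, 0.25 and 0.17, became -0.03 and -0.11 after centring.

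Of the mRNAs of the COMPASS subunits themselves, none of 19 was called, and the median log2 fold change was -0.06. RBBP5 mRNA measured 25.1, 27.2 and 27.4 FPKM in RBBP5 fRIP and 21.6, 23.9 and 25.2 FPKM in input, values that overlap (log2 fold change 0.17, SE 0.14, limma adjusted p = 0.48). WDR5 stood at -0.06, ASH2L at 0.17 and DPY30 at -0.57. The catalytic subunits ran from KMT2B, at -0.58, to KMT2C, at 0.39, and MEN1, the menin tumour suppressor, had the lowest value, at -0.81. None of the 16 H3K4 demethylases and readers was called, although CHD1, whose protein reads methylated H3K4, came close at 0.91, with 105, 95.8 and 146 FPKM against 50.0, 60.6 and 71.4 FPKM. Nor was any of 25 immediate early or AU-rich element genes, 25 heat shock genes, 14 erythroid transcription factors, 12 K562 markers and 9 globins. At an unadjusted p under 0.05 in either direction, without the fold, limma gave 8 of the COMPASS subunits, 4 of the H3K4 genes, 3 immediate early genes, 4 heat shock genes, 4 erythroid factors, 2 K562 markers and 1 globin. These counts, and those at an unadjusted p given above, have no share over all genes beside them. Whether they stand out from other genes therefore cannot be read from them. The globins had a median of -0.76, but HBG2, fetal haemoglobin, varied from 178 to 944 FPKM within input set 1 alone.

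Recovery of mRNAs by RBBP5 fRIP followed their base composition. Over 13579 mRNAs, the Spearman coefficient between the log2 fold change of a library and the GC content of the most expressed isoform was -0.447 ± 0.075 (SD over 3 libraries, from -0.508 to -0.363). It was -0.453 against input set 1, -0.427 against input set 3 and -0.383 ± 0.073 after length was accounted for. With mRNAs split into 5 equal groups by GC content, in the lowest group, under 41.1%, the median log2 fold change was 0.37 and 5.46% were enriched, and in the highest group, over 58.8%, these were -0.21 and 0.11%. Input libraries of different sets showed no such order among themselves, with a Spearman coefficient of 0.018 for input set 1 and 0.027 for input set 3 against input set 2. These correlations run across genes of the same few libraries and are given as descriptions, without a test.

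Longer mRNAs were recovered more by an amount that varied with the input. The Spearman coefficient with transcript length was 0.331 ± 0.026 (SD, n = 3), but 0.168 against input set 1, which was itself higher in long mRNAs than input set 2 (Spearman coefficient 0.191). With 5 equal groups by length, 4.76% were depleted in the shortest, under 1193 bases, and none in the longest, over 3694 bases, and the medians of these groups were -0.19 and 0.22, the latter -0.06 after centring. The 3′ UTR accounted for more of this (0.278 ± 0.027) than the coding sequence (0.148 ± 0.026). Exon number added nothing once length was accounted for, with a Spearman coefficient of -0.031 ± 0.018. With mRNAs split into 3 groups by GC content and 3 by length, the median went from 0.03 in the shortest to 0.40 in the longest at low GC content and from -0.28 to -0.11 at high GC content. The Spearman coefficient with the level in input was weak, at -0.072 ± 0.032 over all genes, -0.122 ± 0.064 over mRNAs and 0.163 ± 0.057 over lncRNAs, with the level taken from input sets 1 and 3.

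The word TTTTAAAA, written in DNA letters, marked mRNAs with higher recovery. It was sought as these 8 letters on the transcript strand of the most expressed isoform, reads the same on either strand and contains the shorter word TTTAAA. Of 13554 mRNAs, 3898 (28.8%) held it. The median log2 fold change was -0.06 in the 9656 mRNAs without it, 0.12 in the 2213 with a single copy, 0.29 in the 905 with 2 copies and 0.44 in the 780 with 3 or more, and the medians with 1 or more copies and without differed by 0.302 ± 0.041 (SD over 3 libraries). The difference was smaller among mRNAs of like GC content: in the group of lowest GC content the medians were 0.44 with the word and 0.26 without, and in the highest -0.17 and -0.22. Words were also ranked without choice over all 4096 words of 6 letters. The 3 with the highest Spearman coefficient were TTTAAA (0.416), TTAAAA (0.408) and ATTTTA (0.407), the lowest was GCCCTG (-0.256), and all of the first 100 held at most 1 G or C. The Spearman coefficient for ATTTA, the core of AU-rich elements, was 0.419 ± 0.053.

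The windows below show the word, in capitals, in the most expressed isoform of enriched mRNAs from each part of a transcript, and in MALAT1, whose fold change was high but not called. They are printed as DNA letters of the transcript strand (GRCh37).
CREBZF 3′ UTR, chr11:85373423-85373452, minus strand: ttcctgctttaTTTTAAAAggtagtataag
ZNF519 3′ UTR, chr18:14102775-14102804, minus strand: ttggattgaatTTTTAAAAtattgtcttaa
TAS2R14 3′ UTR, chr12:11090072-11090101, minus strand: gagataaattcTTTTAAAAatattcttcag
GPR22 5′ UTR, chr7:107112059-107112088, plus strand: ctgaaaagaatTTTTAAAAggggaagttta
CEP290 coding sequence, chr12:88514871-88514900, minus strand: aacgttagacaTTTTAAAAgagaaaactaa
ROCK1 coding sequence, chr18:18547845-18547874, minus strand: aatcgaaaagaTTTTAAAAttgatagaaag
MALAT1, chr11:65266949-65266978, plus strand: tgaaggcgatcTTTTAAAAagagattaaac

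The word was neither needed nor enough for enrichment. ANKRD10, OGN, TAS2R19 and TAS2R20 were enriched and hold none, while NORAD and the RBBP5 mRNA hold 3 copies each and stood at 0.37 and 0.17 without a call. SCARNA2 and TERC, with GC contents of 65.8% and 66.7%, were enriched against the order seen among mRNAs. Among lncRNAs the Spearman coefficient with GC content was -0.293 ± 0.041 and with the count of the word 0.113 ± 0.026, both weaker than among mRNAs.

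**Figure D4:**
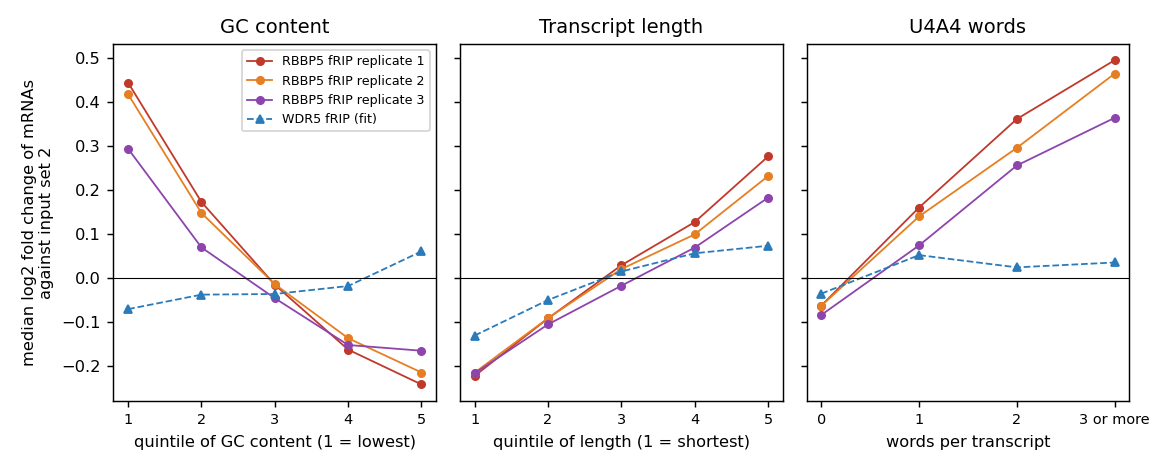
Median log2 fold change against input set 2 of mRNAs in 5 equal groups by GC content, 5 by transcript length and 4 by number of TTTTAAAA words, with a line for each RBBP5 library and a dashed line for WDR5 fRIP. All 3 RBBP5 lines fall with GC content and rise with length and with the number of words, reaching 0.36 to 0.50 at 3 or more words, where WDR5 fRIP stood at 0.04.

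RBBP5 fRIP also recovered more transcripts annotated with a retained intron, a class of isoforms that keep intron sequence and do not encode the protein. Of 104506 isoforms tested, 3621 (3.46%) were enriched and 1879 (1.8%) were depleted. Retained intron isoforms were enriched in 1569 of 19390 cases (8.09%) and depleted in 90 (0.46%), while protein coding isoforms were enriched in 831 of 42461 cases (1.96%) and depleted in 1205 (2.84%). Against input set 1, 807 retained intron isoforms were enriched and 181 depleted. The share of the FPKM of mRNA genes in retained intron isoforms was 15.6%, 15.2% and 16.4% in the RBBP5 libraries, 9.27%, 9.84% and 9.71% in input set 2 and 13.9%, 12.8% and 12.7% in input set 1. All 3 RBBP5 libraries thus exceeded all 9 inputs, though by less over input set 1. The lncRNA share of kept FPKM was 9.35% to 10.4% in RBBP5 fRIP and 4.96% to 5.86% in input set 2. Without MALAT1 and SCARNA2 it was 5.51% to 5.80% in RBBP5 fRIP, 4.35% to 5.09% in input set 2 and 5.15% to 5.86% in input set 1, which overlaps RBBP5 fRIP.

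Within genes the pattern was the same. In 4752 genes with both kinds of isoform at 1 FPKM or more on average, the log2 ratio of retained intron to coding FPKM was higher in RBBP5 fRIP by a median of 0.66, with every RBBP5 library above every input library in 2447 genes (51.5%) and below in 123 (2.59%). The median difference was 0.24 against input set 1 and 0.78 against input set 3. Among mRNA genes, 1054 had an enriched retained intron isoform, and 84 of these were enriched as genes. Isoform FPKM are divided among overlapping isoforms by the authors' tool, and short reads seldom decide between them.

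The retained intron isoforms named next were chosen after their values were seen. An 874-base retained intron isoform of PHB2, a mitochondrial scaffold protein, measured 442, 523 and 476 FPKM in RBBP5 fRIP and 46.9, 49.0 and 44.2 FPKM in input (log2 fold change 3.33, limma adjusted p = 2.33e-23). A 620-base one of HNRNPH1, a splicing regulator, measured 272, 268 and 300 FPKM against 30.0, 28.4 and 35.1 FPKM (3.13). The splicing helicase DDX17, HNRNPA2B1 and the lipid transfer gene VPS13C had such isoforms at 3.14, 2.79 and 2.86. By the fixed rule for genes with opposed coding isoforms, WSB1, PHB2, HNRNPK and HNRNPH1 led 69 such genes. In WSB1, a substrate receptor of a ubiquitin ligase, the full 5105-base isoform measured 36.8, 29.9 and 32.7 FPKM in input and near 0 in all RBBP5 libraries (-5.09), while a 1670-base coding isoform measured 79.5, 72.3 and 32.7 FPKM in RBBP5 fRIP and 2.23, 1.26 and 0.90 FPKM in input (4.60).

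**Figure D5:**
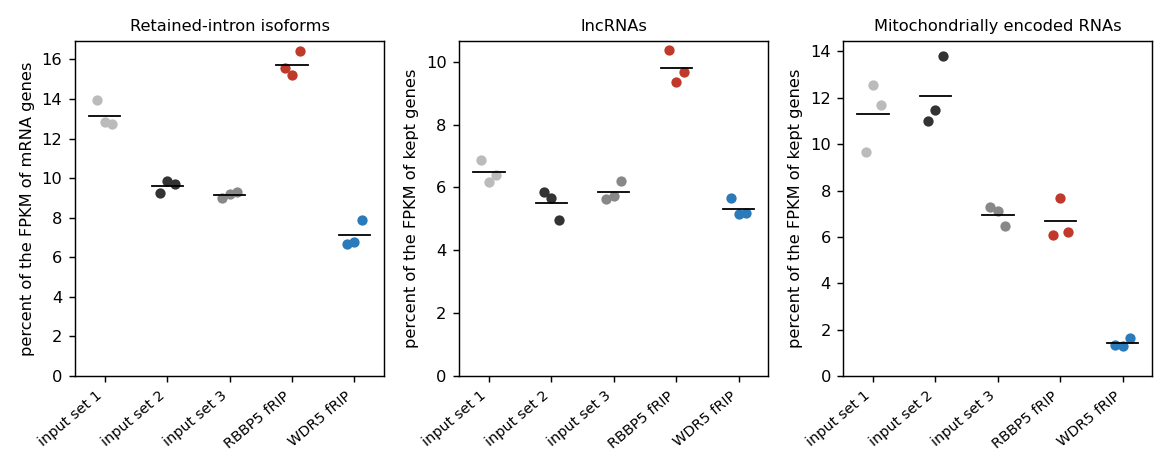
Percent of FPKM in retained intron isoforms of mRNA genes, in lncRNAs and in all mitochondrially encoded RNAs, not only those listed. Each library has a point and each group of 3 a line at its mean. RBBP5 fRIP lies above all inputs for retained introns, at 15.2% to 16.4%, and for lncRNAs with MALAT1 and SCARNA2 included, at 9.35% to 10.4%, and for mitochondrial RNAs it lies at 6.09% to 7.68%, below input set 2 and level with input set 3.

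WDR5, the partner of RBBP5 in the COMPASS core, was compared with RBBP5 directly. A test without input found 3284 genes (12.9%) higher in RBBP5 fRIP and 1319 (5.18%) lower, and 1435 and 4297 after centring, which shows how far the balance of these counts rests on the scaling. Of the 685 genes enriched with RBBP5, 638 were higher than in WDR5 fRIP and 0 were lower, in comparisons that share the RBBP5 libraries. Against the same input libraries WDR5 fRIP had 872 enriched and 1260 depleted genes. WDR5 library 3, at about 8190000 fragments, was as shallow as the RBBP5 libraries, and the other WDR5 libraries held about 23200000 and 28300000.

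Intronic and antisense transcripts were among the genes higher with RBBP5 that the naming rule selects. ACAP2-IT1 measured 1.05, 0.53 and 0.23 FPKM in WDR5 fRIP, a difference of 4.20 on the log2 scale (SE 0.28, limma adjusted p = 2.70e-18). ANKRD10-IT1, an intronic transcript of ANKRD10, measured 44.6, 42.5 and 41.9 FPKM with RBBP5 and 1.75, 2.07 and 2.17 FPKM with WDR5 (3.88), and GRM7-AS3 measured 43.0, 49.9 and 49.0 FPKM against 2.31, 1.91 and 3.35 FPKM (3.79). MALAT1 measured 749, 642 and 1119 FPKM with WDR5, a difference of 4.02 (SE 1.31, limma adjusted p = 0.011). The mitochondrially encoded RNAs were all 13 higher with RBBP5 than with WDR5, at a median difference of 2.25, although RBBP5 fRIP was itself below input for them.

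The genes furthest below WDR5 fRIP lay near or below input in RBBP5 fRIP. NORAD, a long noncoding RNA that binds the PUMILIO proteins, measured 82.7, 83.2 and 99.8 FPKM with RBBP5, 68.7, 62.3 and 74.2 FPKM in input and 560, 490 and 693 FPKM with WDR5 (difference -2.69, limma adjusted p = 1.38e-20). CHST2, a sulfotransferase, measured 15.6, 19.5 and 15.5 FPKM against 123, 116 and 117 FPKM with WDR5 (-2.75), and PPP1R26, a regulator of protein phosphatase, 14.5, 12 and 15.8 FPKM against 98.9, 83.4 and 114 FPKM (-2.72). RIOX1 stood at -2.73 on values below 4 FPKM with RBBP5, and AP001266.1, a pseudogene, at -3.93. Of the 19 COMPASS subunit mRNAs 6 were lower with RBBP5 than with WDR5 and none was higher. Of all 13618 mRNAs tested 1042 were lower and 864 higher, and of all genes 5.18% were lower and 12.9% higher. The median difference of the list was -0.66 and became -1.22 after centring. WDR82, among the 6, measured 23.8, 30.5 and 39.5 FPKM with RBBP5 and 55.1, 64.5 and 97.6 FPKM with WDR5 (-1.17). For WDR5 fRIP, the Spearman coefficient with GC content was 0.089 ± 0.008 and with transcript length 0.168 ± 0.002 against input set 2.

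Set against the mean of the other 23 fRIPs, 1277 genes (5.02%) were higher with RBBP5, and 557 of the 685 genes enriched over input, from the same RBBP5 libraries, were among them. The count of higher genes was 754 after centring and 2970 with a pseudocount of 0.1 FPKM. The leading noncoding RNAs kept large differences in this comparison, with 5.58 for SCARNA10, 4.79 for SCARNA2, 3.07 for TERC and 2.92 for MIR17HG on the log2 scale. By share of FPKM, RBBP5 fRIP ranked 2 of 24 in lncRNAs, after HNRNPU, but 7 of 24 without MALAT1 and SCARNA2, and 8 of 24 in retained intron isoforms. Its Spearman coefficient with GC content against all 9 inputs, -0.474 ± 0.112, was the lowest of the panel, followed by IMP1 at -0.409 ± 0.050 and HUR at -0.392 ± 0.063, of which HUR is known to bind AU-rich elements. These 3 lay within their spread of each other and their order was not tested.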

How the data were processed

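The labels describe formaldehyde RNA immunoprecipitation followed by paired-end sequencing of TruSeq libraries, a kit that does not mark strand, and the study's methods name TopHat for alignment to hg19 and Cuffdiff with GENCODE v18 for quantification, and the submitters' processing notes also name Cuffnorm. The sources used here give neither strand use in counting nor the input set that accompanied RBBP5 fRIP. The authors deposited FPKM per gene and per isoform for all 79 libraries, and raw counts were not used here. The authors' own comparison columns were left out.

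A minimum of 1 FPKM in 2 or more libraries left 25442 of 48453 genes and 104506 of 185661 isoforms. Values were taken as log2(FPKM + 1) and fitted with limma 3.58.1 in R 4.3.3, with a mean-variance trend and the spread shared over 79 libraries in 27 groups. A gene was called at a Benjamini-Hochberg adjusted p under 0.05, over all genes tested, and a log2 fold change beyond 1. The p-values measure the spread between libraries. Classes, positions and sequences came from GENCODE v44 lifted to GRCh37, in which 24279 of the tested genes were found. Correlations used Python 3.11.15 with pandas 2.3.3, numpy 2.4.6 and scipy 1.17.1, and figures matplotlib 3.10.9. The fit was tested on simulated data, in which 94% to 96% of 50 genes at each of 4 fold sizes, and 11 of 25242 unchanged genes, were called. The simulated noise was normal with a single SD per gene for all groups, and changes were planted only in genes above a set level in input. The lower depth of RBBP5 fRIP was not simulated, so these shares need not hold for the real libraries.

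Depth was read from the FPKM step of 1 fragment in genes with a single isoform. Low values of the RBBP5 libraries were whole multiples of that step, within 0.15, in 85.7% to 88.6% of cases. RBBP5 and WDR5 libraries of the same number deviated together (correlations 0.278, 0.146 and 0.430), a pairing taken from the data and not from the labels.

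The members, lists and tests were chosen with earlier results of these data known. Genes were named by rule: RBBP5 and the COMPASS subunits, then, among called genes of at least 500 bases and 5 FPKM whose libraries did not overlap, the 10 mRNAs furthest up and 8 furthest down and the 6 and 4 lncRNAs likewise, then for each list the called members furthest up and down and the member highest in input, the 5 genes furthest from WDR5 fRIP each way and the 4 genes with the most opposed coding isoforms. Genes named outside this rule were chosen after their values were seen, among them scaRNAs, hosts of nested genes and members added to lists. Alternatives were other pseudocounts, filters, centring, inputs, a fit on 6 libraries, a replicate block and leaving out each library. Isoform counts against input sets 1 and 3 and the lncRNA share without MALAT1 and SCARNA2 were added after seeing the data. Some genes that the rule names are not reported here.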

Additional observations from a re-analysis of the deposited data

Results flagged for a closer look

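The rule here took named RNAs called by limma in opposite directions with RBBP5 and WDR5 against input set 2. It also required a called difference between the proteins, and 10 RNAs met it. Some had been named for being furthest from WDR5 fRIP, and the scaRNAs after their values were seen. Over all 25442 genes tested, 225 were enriched with RBBP5 and depleted with WDR5, and 1 was the reverse. With both proteins 1 gene was enriched and 74 were depleted. The comparisons with input share the same input libraries, so the values are given side by side. On the log2(FPKM + 1) scale, SCARNA10 stood at 4.91 with RBBP5 and -1.82 with WDR5, a difference of 6.73 (limma adjusted p = 1.50e-23). SCARNA2 stood at 3.68 and -1.42, a difference of 5.11 (limma adjusted p = 6.31e-26). SCARNA9 stood at 2.37 and -2.07 (difference 4.43), and TERC at 1.83 and -1.86 (difference 3.69). ACAP2-IT1 stood at 2.51 and -1.69 (difference 4.20), GRM7-AS3 at 1.73 and -2.07 (difference 3.79) and RP3-368A4.6 at 1.89 and -1.17 (difference 3.07). The nested mRNAs GPR22, at 1.87 and -1.60 (difference 3.47), and OGN, at 1.70 and -1.54 (difference 3.24), followed the same order. AP001266.1 was opposite, at -1.21 with RBBP5 and 2.72 with WDR5 (difference -3.93), and its depletion with RBBP5 was not called in the fit on 6 libraries (limma adjusted p = 0.050). In each of the 10 all 3 libraries of each protein lay on their own side of the libraries of input set 2. Against input set 1 this did not hold for SCARNA2, at 331, 301 and 280 FPKM in WDR5 fRIP and 319, 247 and 247 FPKM in input, or for TERC, at 24.3, 19.6 and 25.3 FPKM in WDR5 fRIP and 29.6, 20.2 and 22.6 FPKM in input. Groups held 3 libraries, too few for a check of single libraries far from their group.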

How the results depend on the processing

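Of 43 called genes, those named by rule and the scaRNAs, 27 were called in every alternative run. Calls were lost by 9 of them against input set 1, 4 against input set 3, 3 against all 9 inputs, 2 after centring, 3 in the fit on the 6 libraries alone, 4 each without RBBP5 library 1 and input library 3, 1 each without the other libraries in turn and 0 with a replicate block, and HIST1H3B reversed to 0.42 against input set 1. Causes were not tested. After centring each library on its median gene, counts became 217 enriched and 763 depleted against input set 2, 1435 higher and 4297 lower than WDR5 fRIP, and 754 higher than the other 23 fRIPs. Against input set 1, 413 genes and 2376 isoforms were enriched. Against input set 3, 1142 genes and 5458 isoforms were enriched and 446 genes and 3173 isoforms depleted. The count above the other 23 fRIPs was 2970 with a pseudocount of 0.1 FPKM and 1970 with 0.5 FPKM. Leaving out a library in turn gave 615 to 878 enriched and 201 to 363 depleted genes, 3010 to 3783 and 1330 to 1862 isoforms, 3136 to 3463 genes higher and 1263 to 1385 lower than WDR5 fRIP, and 1273 to 1430 above the other fRIPs.

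The Spearman coefficient with transcript length was 0.372 over genes with a mean of at least 1 FPKM, 0.289 against all 9 inputs, 0.168 against input set 1 and 0.292 after exon number. The Spearman coefficient with exon number was 0.0657 against all 9 inputs, 0.00524 and 0.0725 against input sets 1 and 3, and -0.0308 after length. The Spearman coefficient with input FPKM became -0.178 at a mean of at least 1 FPKM. The difference for TTTTAAAA became 0.382 with a pseudocount of 0.1 FPKM and 0.354 at a mean of at least 1 FPKM. Without a library in turn, these ran from 0.317 to 0.341 for length, 0.0906 to 0.116 for exon number, -0.489 to -0.417 for GC content, -0.0877 to -0.0533 for input FPKM and 0.282 to 0.323 for TTTTAAAA.

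Same-numbered RBBP5 and input libraries deviated together at 0.289, 0.0877 and 0.445, and pairs of unlike number ran from -0.373 to 0.136. RBBP5 libraries 1 and 3 each correlated best with the input library of their own number. RBBP5 library 2 correlated best with input library 1, at 0.136. These values do not settle whether the numbers pair these samples. With the replicate block there were 690 enriched and 253 depleted genes, and 3287 higher and 1324 lower than WDR5 fRIP, and no named call changed. The RBBP5 libraries hold fewer fragments than input, which limits genes of few FPKM.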

Other observations

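HSPA8, a constitutive chaperone of the heat shock family, was highest in the library numbered 3 of RBBP5 fRIP, input set 2 and WDR5 fRIP, and lowest in that of input sets 1 and 3. It measured 245, 391.5 and 865 FPKM in RBBP5 libraries 1 to 3, 308, 461 and 1062 FPKM in input set 2 and 168, 275 and 673 FPKM in WDR5 fRIP, but 383, 299 and 292 FPKM in input set 1 and 372, 322 and 226 FPKM in input set 3. The inducible HSPA1A measured 5.39, 8.11 and 21.4 FPKM in RBBP5 fRIP and 7.15, 7.92 and 26.0 FPKM in input set 2, highest in library 3 of both groups. Against input neither was called, at -0.29 for HSPA8 (limma adjusted p = 0.80).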
